A study of Mus musculus with 4 samples.

Results

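The 10 cytokine genes Il3, Csf2, Csf3, Il6, Kitl, Osm, Lif, Tnf, Il1b and Il4, which could in principle feed a blood cell from within, were followed in cells kept with or without interleukin-3 (IL-3). They were taken by name from a table of 23756 genes, and 8 of them had a row. Il3 and Csf2 had none. The table lists only genes with at least 1 count in some library.

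RNA-seq was performed on 32Dcl3-Abl1ko cells. The parent line is hematopoietic, murine and dependent on IL-3 in the medium. In these cells Abl1, coding for a nonreceptor tyrosine kinase, had been targeted by CRISPR/Cas9 with guides delivered by lentivirus. According to the paper, guides g1 and g2 gave separate knockout populations. Cells growing with IL-3 (Abl1ko/IL3+) and cells that grew without it after gradual withdrawal (Abl1ko/IL3-) gave 2 libraries each. Both groups carry the Abl1 knockout, so no comparison with Abl1-proficient cells is given here, and the time without IL-3 of each library is not in the labels. The labels call the duplicates biological but do not tie them to a guide or a clone. According to the methods, single clones were picked after puromycin and lower ABL1 protein was seen on a blot. The methods name 2 clones as used for the experiments, so a group may rest on few clones. Abl1 itself was read at 1322 and 2222 counts with IL-3, and at 1544 and 2256 without it. Transcript counts after a small edit do not check the level of the protein.

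Library totals ran from 48953174 to 60382588 counts, so that 3 counts, taken as the floor of detection for counting error alone, stood for 0.0497 to 0.0613 CPM (counts scaled to a library total of 1000000). The labels give the cell type as a pre-B-cell, whereas the study speaks of murine hematopoietic cells. Of 11 B lineage markers, 7 had a row, and their summed level was 19.6 to 23.5 CPM. Cd79b had 607 to 1044 counts and Cd79a 43 to 635, while Pax5, Ebf1, Blnk and Rag2 had no row. The 6 myeloid progenitor markers (Mpo, Elane, Prtn3, Ctsg, Ms4a3 and Cebpe) summed to 1504 to 3158 CPM. The label of a pre-B-cell had little support in the defining B lineage markers, and the cells are called 32Dcl3-Abl1ko cells below.

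Cytokines are small secreted or membrane-bound proteins that act through receptors on the same cell or on neighbours. Il3 and Csf2 encode IL-3 and GM-CSF, whose receptors pair a private alpha chain with a shared beta chain and signal through JAK2 and STAT5. A factor-dependent line that starts to make its own ligand, and has the matching receptor, could grow without the added one, which is why these genes are the usual candidates when such a line becomes independent. Transcripts of many cytokines are short-lived, because AU-rich elements behind the coding sequence recruit proteins that promote decay, and several cytokine promoters hold sites for NF-kappaB, AP-1, C/EBP or STAT factors.

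The bases upstream of the start site are shown for Il6 and Il4, the members with the highest levels in the libraries with IL-3, and for Tnf, whose groups did not overlap among the members tested. Motifs were searched on both strands of the 250 bases before each annotated start: AP-1 as TGANTCA, C/EBP as TTGCNNAA, STAT as TTCNNNGAA or TTCNNNNGAA, and the NF-kappaB decamer by its usual consensus. Sequences come from RefSeq on GRCm38.p6, which held 9 promoters for 8 of the 10 members and no entry for Csf3 and Osm. Capitals mark the matches, and each run is written 5′ to 3′ on the strand of the gene. The windows are chr5:30012864-30013113 on the plus strand for Il6, chr17:35202008-35202257 on the minus strand for Tnf, and chr11:53618666-53618915 on the minus strand for the promoter of Il4 that holds matches.
Il6: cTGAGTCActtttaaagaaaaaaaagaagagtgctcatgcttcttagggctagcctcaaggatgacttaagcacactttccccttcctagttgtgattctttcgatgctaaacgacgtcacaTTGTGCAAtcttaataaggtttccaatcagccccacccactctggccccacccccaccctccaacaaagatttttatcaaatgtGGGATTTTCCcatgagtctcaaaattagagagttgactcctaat
Tnf: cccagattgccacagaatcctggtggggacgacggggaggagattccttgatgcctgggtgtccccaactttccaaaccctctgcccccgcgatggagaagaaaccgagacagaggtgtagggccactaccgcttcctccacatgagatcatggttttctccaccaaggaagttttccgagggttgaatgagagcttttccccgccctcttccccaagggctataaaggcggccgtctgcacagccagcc
Il4: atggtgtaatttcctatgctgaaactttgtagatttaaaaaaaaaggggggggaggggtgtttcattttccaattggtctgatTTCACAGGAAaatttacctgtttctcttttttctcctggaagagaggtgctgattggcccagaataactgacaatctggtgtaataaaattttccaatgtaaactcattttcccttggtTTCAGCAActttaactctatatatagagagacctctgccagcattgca
In Il6 the AP-1, C/EBP and NF-kappaB matches began at -249, -128 and -44 from the start. In Il4 the STAT match with a 4-base spacer began at -167 and the C/EBP match at -48. The window of Tnf held none of the 5 motifs searched. Over the 9 member promoters, 3 held the NF-kappaB decamer (Il6, Lif and Kitl), 3 a C/EBP match (Il6, Csf2 and Il4), 2 an AP-1 match (Il6 and Lif), 1 a STAT match with a 4-base spacer and 0 one with a 3-base spacer. Among all 32851 promoters of the same table the shares were 7.3%, 9.6%, 6.7%, 5.9% and 7.0%. A match describes letters only, and its absence from this window says nothing about the factor.

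Behind the stop codon, the nonamer TTATTTATT, the core of a strong AU-rich element, was present in the transcript models of Csf2, Lif and Tnf, 3 of the 10 members. It was present in 6.9% of 11911 genes with a usable transcript among those tested. At least 5 copies of the pentamer ATTTA were found in 7 of the 10 members and in 18.0% of those genes, whose median length behind the stop was 904 bases. Tnf carried 5 nonamers and 8 pentamers, Csf2 carried 4 and 9, and Lif carried 2 and 7. Il4 carried 0 nonamers and 2 pentamers. A single transcript model was read per gene, and those of Il3 and Il4 had only 101 and 104 bases behind the stop. An element outside the model read would be missed. For each of the 3 genes whose models held the nonamer, 1 copy is shown in capitals with its neighbours. The sites lie at chr11:54247329-54247357 on the minus strand for Csf2, chr11:4272039-4272067 on the plus strand for Lif and chr17:35199689-35199717 on the minus strand for Tnf, all in GRCm38 and read from GENCODE M21 transcripts.
Csf2: ttttaaatatTTATTTATTtatttattta
Lif: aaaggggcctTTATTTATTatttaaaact
Tnf: tttgcacttaTTATTTATTatttatttat

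No member passed the test between Abl1ko/IL3- and Abl1ko/IL3+. Of the 8 genes with a row, 7 had enough counts to be tested. By the quasi-likelihood test of edgeR, adjusted over 16535 genes by the Benjamini-Hochberg method, 0 of these 7 passed an adjusted p of 0.05, against 0% of all genes tested. At an unadjusted p under 0.05, 0 of the 7 members were found, against 5.91% of all genes. DESeq2 called 0 of the 7, against 1.64% of all genes. The estimates were higher without IL-3 for Tnf, Kitl, Lif, Osm and Il1b and lower for Il6 and Il4, with a median log2 fold change of 0.51 beside -0.03 for all genes tested. Both libraries without IL-3 lay above both libraries with it for 1 of the 7 tested members, Tnf, against 21.5% of all genes, and below for 0 of the 7, against 15.5%. Groups of 2 libraries leave wide intervals, and the adjusted p of the members ran from 0.855 to 0.999 in edgeR.

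**Figure D1:**
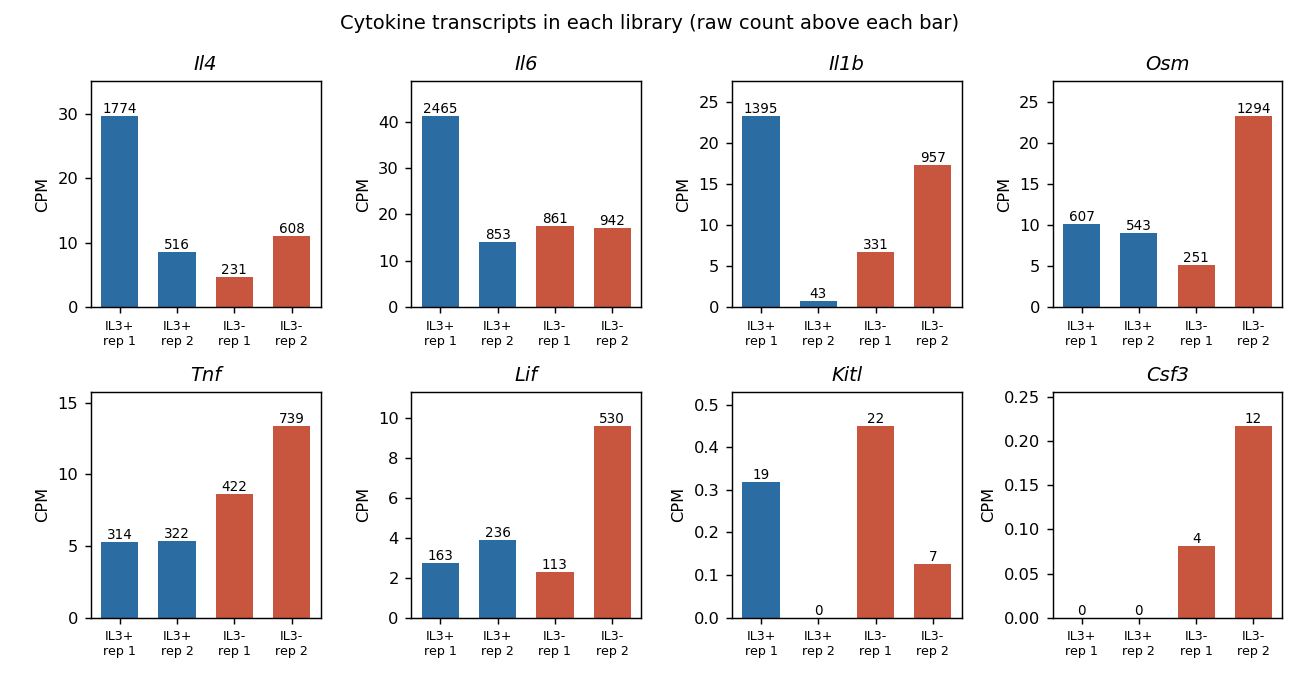
Each panel plots CPM (linear axis from 0) of 1 cytokine in the 4 libraries, blue for Abl1ko/IL3+ and red for Abl1ko/IL3-, with the raw count above the bar. Tnf and Csf3 were higher in both libraries without IL-3, Il4, Il6 and Il1b were highest in Abl1ko/IL3+ replicate 1, and Osm and Lif were highest in Abl1ko/IL3- replicate 2.

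Il3 and Csf2, the ligands of the beta common receptor, were looked for by symbol and by identifier (ENSMUSG00000018914 and ENSMUSG00000018916), and neither gave a row. In GRCm38 the genes lie 15.6 kb apart on the minus strand of chromosome 11, Csf2 from 54247271 to 54249667 and Il3 from 54265303 to 54267277. Since genes with 1 count are in the table, no count of either was listed in any library, with or without IL-3. A row left out of the table for another reason cannot be told apart from absence of reads, and Csf2 shares exon bases with Gm12223 on the other strand.

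Csf3, which encodes G-CSF, the growth factor of neutrophil precursors, was listed at 0 and 0 counts in Abl1ko/IL3+ and at 4 and 12 in Abl1ko/IL3- replicates 1 and 2. All its reads were therefore in cells without IL-3, and the groups did not overlap. The exact 95% Poisson interval was 1.09 to 10.2 for 4 counts and 6.20 to 21.0 for 12 counts, and 0 counts allowed up to 3.69. The mean of 0.0817 and 0.217 CPM was 2.99 times the mean floor of the libraries with IL-3. This ratio leaves out the counting error of the 4 and 12 counts and is not a lower bound. Csf3, at chr11:98701263-98703629, did not pass the filter on low counts and was not tested. Of all 23756 genes, 1.76% likewise had counts in both libraries without IL-3 and in neither with it. Low counts were even more often than odd in every library (57.7% to 59.9% of counts from 1 to 20), and whether 4 counts stand for 4 fragments is not known.

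Il6, Osm and Lif belong to the family whose receptors contain gp130 and activate STAT3. Il6, an inflammatory cytokine and a growth factor of plasma cells, had 41.3 and 14.1 CPM in Abl1ko/IL3+ replicates 1 and 2 and 17.6 and 17.0 CPM in Abl1ko/IL3- replicates 1 and 2. Both libraries without IL-3 lay between those with it. The means were 27.7 ± 19.2 CPM with IL-3 and 17.3 ± 0.396 CPM without (SD, n = 2 each). The log2 fold change was -0.66 (standard error 0.53, 95% interval -2.02 to 0.71, adjusted p = 0.919 in edgeR). The sign rested on Abl1ko/IL3+ replicate 1: without that library the log2 fold change was 0.14.

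Osm encodes oncostatin M, made by activated myeloid cells and a target of STAT5 in IL-3-stimulated cells. It had 10.2 and 8.99 CPM with IL-3 and 5.13 and 23.4 CPM without. The libraries without IL-3 lay on either side of those with it, 4.56-fold apart from each other. The log2 fold change was 0.51 (standard error 0.74, 95% interval -1.41 to 2.42, adjusted p = 0.969 in edgeR), and it was -0.88 without Abl1ko/IL3- replicate 2.

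Lif, coding for leukemia inhibitory factor, had 2.73 and 3.91 CPM with IL-3 and 2.31 and 9.58 CPM without. As for Osm, Abl1ko/IL3- replicate 1 was the lowest and replicate 2 the highest of the 4 libraries. The log2 fold change was 0.74 (standard error 0.79, 95% interval -1.30 to 2.79, adjusted p = 0.942 in edgeR), and -0.53 without Abl1ko/IL3- replicate 2. Osm and Lif are neighbours on the plus strand of chromosome 11, where Osm ends 16.5 kb before Lif starts (chr11:4236420-4241026 and chr11:4257557-4272514).

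Kitl encodes stem cell factor, the ligand of the receptor tyrosine kinase Kit. It had 19 and 0 counts with IL-3, against 22 and 7 without it, so the groups overlapped and every level was under 0.45 CPM. Its log2 fold change of 0.94 had a standard error of 1.79 and a 95% interval of -3.66 to 5.55 (adjusted p = 0.976 in edgeR). Leaving out Abl1ko/IL3+ replicate 2 or Abl1ko/IL3- replicate 1 gave -0.03 and -0.30, and leaving out Abl1ko/IL3+ replicate 1, after which the group with IL-3 was at 0 counts, gave a fitted 6.96 that depends on the prior count. At this depth a difference in Kitl was not detectable.

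Tnf and Il1b encode tumor necrosis factor and interleukin-1 beta, inflammatory cytokines that activate NF-kappaB. Tnf, at chr17:35199381-35202007, had 314 and 322 counts in Abl1ko/IL3+ replicates 1 and 2 and 422 and 739 counts in Abl1ko/IL3- replicates 1 and 2. Scaled to depth these were 5.26 and 5.33 CPM with IL-3 and 8.62 and 13.4 CPM without. Of the tested members, Tnf had the closest pair of libraries with IL-3, and both libraries without IL-3 lay above them. The mean was 5.30 ± 0.0491 CPM with and 11.0 ± 3.35 CPM without IL-3 (SD, n = 2 each), 2.07-fold higher. The log2 fold change was 0.997 (standard error 0.46, 95% interval -0.17 to 2.17), and the adjusted p was 0.855 in edgeR and 0.618 in DESeq2. It stayed above 0 when each library was left out, between 0.72 and 1.24, but 20.7% of all genes tested had a larger log2 fold change in size.

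Il1b had 23.4 and 0.712 CPM with IL-3 and 6.76 and 17.3 CPM without. The highest and the lowest library were both in the group with IL-3 and 32.8-fold apart, and the libraries without IL-3 lay between them. The group means were 12.0 ± 16.0 and 12.0 ± 7.45 CPM (SD, n = 2 each), and the log2 fold change was 0.06 (standard error 1.39, 95% interval -3.53 to 3.65, adjusted p = 0.999 in edgeR). Without Abl1ko/IL3+ replicate 1 it was 3.90, and without Abl1ko/IL3+ replicate 2 or Abl1ko/IL3- replicate 2 it was -0.89 and -0.70. Il1b shares exon bases with Il1bos on the other strand, whose row had 672, 28, 17 and 134 counts in the same order of libraries. Whether the counting used strand is not known, so reads of these genes may be mixed.

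Il4, the cytokine of type 2 immunity that basophils, mast cells and T cells make, had 29.7 and 8.55 CPM with IL-3 and 4.72 and 11.0 CPM without. Abl1ko/IL3+ replicate 1 stood above the other 3 libraries, and the groups overlapped. The mean was 19.1 ± 15.0 CPM with and 7.85 ± 4.43 CPM without IL-3 (SD, n = 2 each). The log2 fold change was -1.27 (standard error 0.71, 95% interval -3.10 to 0.55, adjusted p = 0.874 in edgeR). It stayed below 0 when each library was left out, but was -0.29 without Abl1ko/IL3+ replicate 1 and -1.94 without Abl1ko/IL3- replicate 2.

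**Figure D2:**
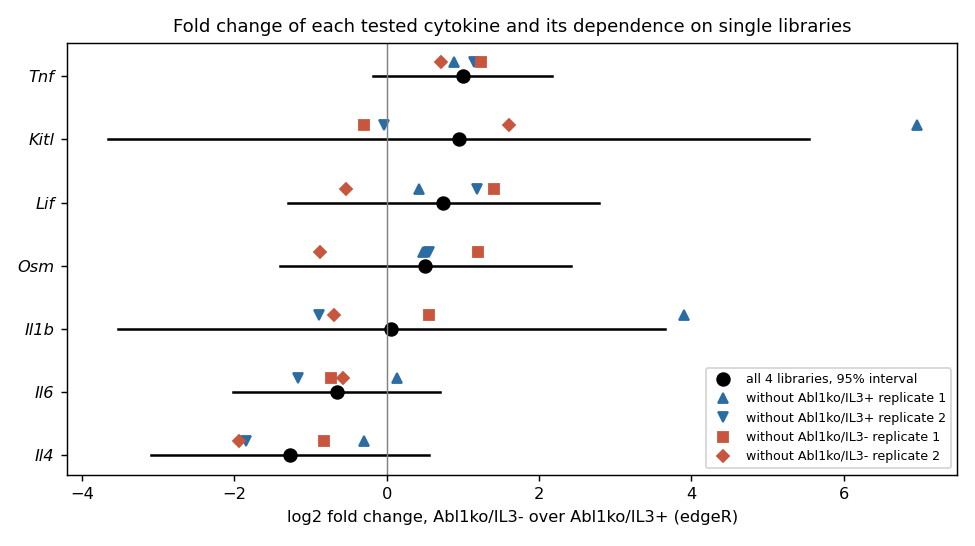
Log2 fold change of Abl1ko/IL3- over Abl1ko/IL3+ (horizontal axis) for the 7 tested cytokines, with black points and lines for the estimate from all 4 libraries and its 95% interval, and coloured marks for the estimate without each library. Every interval holds 0, and the coloured marks stay on 1 side of 0 only for Tnf and Il4.

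On the scale of FPKM, which corrects for gene length and so allows levels of different genes to be compared, no member held the same place in all libraries. Il4 had the highest FPKM of the 8 in both libraries with IL-3, at 21.5 and 6.17. Il6 was highest in Abl1ko/IL3- replicate 1 at 6.32 FPKM, and Osm in Abl1ko/IL3- replicate 2 at 9.07 FPKM. Csf3 and Kitl were the lowest in every library, under 0.13 FPKM. Il1b ran from 0.321 to 10.9 FPKM and Tnf from 2.86 to 7.19 FPKM. Il4 held the same place within each group, whereas Il6, Osm, Lif, Tnf and Il1b changed places within at least 1 group.

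Receptor transcripts were examined from a list of 18 genes coding for chains that bind the 10 cytokines. Of these, 17 had a row (Il1r1 had none) and 11 were tested, 5 with a higher and 6 with a lower estimate without IL-3 and a median log2 fold change of -0.05. None of the 11 passed an adjusted p of 0.05 in edgeR or in DESeq2 (0% and 1.64% of all genes tested), and 2 had an unadjusted p under 0.05 (5.91% of all genes). Il3ra, the private chain of the IL-3 receptor, had 12.3 and 31.7 FPKM with IL-3 and 29.3 and 18.3 FPKM without. Csf2rb, the shared beta chain, had 61.9, 32.6, 38.0 and 7.06 FPKM in the order Abl1ko/IL3+ replicates 1 and 2 and Abl1ko/IL3- replicates 1 and 2. Its near-identical copy Csf2rb2, the beta chain specific to IL-3 in the mouse, had 286, 63.8, 87.5 and 90.4 FPKM. Chains of the IL-3 receptor were therefore transcribed in cells of both groups, although reads may be split unevenly between the copies. Csf2ra, the private chain for GM-CSF, had 0 counts in 3 libraries and 8 in Abl1ko/IL3- replicate 2.

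The receptors of the other growth factors had few counts. Csf3r, which binds G-CSF, had 29 and 0 counts with IL-3, against 12 and 45 without it. Il6st, coding for gp130, had 8 to 16 counts per library, and Il6ra had 0 and 12 counts with IL-3, against 19 and 83 without it. Osmr had 4 counts in Abl1ko/IL3- replicate 2 and 0 elsewhere, Lifr had 11 counts in Abl1ko/IL3+ replicate 1 and 0 elsewhere, and Kit had 4 counts in Abl1ko/IL3+ replicate 2 and in Abl1ko/IL3- replicate 1 and 0 elsewhere. The gp130 ligands Il6, Osm and Lif thus had 0.464 to 15.1 FPKM in cells whose Il6st transcript was under 0.03 FPKM.

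Receptors for tumor necrosis factor and interleukin-4 were transcribed at higher levels. Tnfrsf1a, the main signalling receptor for tumor necrosis factor, had 29.7 and 36.3 FPKM with IL-3 and 27.0 and 38.8 FPKM without, and Tnfrsf1b had 8.55, 5.24, 5.88 and 8.42 FPKM in the same order. Il4ra, the private chain of the IL-4 receptor, had 18.0 and 10.9 FPKM with IL-3 and 6.39 and 8.76 FPKM without. Il2rg, the common gamma chain that pairs with it, had 45.3 and 48.1 FPKM with IL-3 and 25.7 and 28.1 FPKM without. Both chains were lower in both libraries without IL-3. The log2 fold changes were -0.93 (standard error 0.35) for Il4ra and -0.83 (standard error 0.31) for Il2rg. Neither passed the adjusted threshold (adjusted p = 0.841 for each in edgeR). These are the 2 receptor genes with an unadjusted p under 0.05. Of the 17 receptor genes, these 2 were lower in both libraries without IL-3 and 3 were higher, Il6ra, Il6st and Il13ra1. Of the 11 tested, 2 were lower and 2 higher, against 15.5% and 21.5% of all genes tested. Il13ra1, the chain of the other IL-4 receptor, had 0 and 4 counts with IL-3, against 8 and 134 without it. For interleukin-1, Il1rap had 1.38, 0.332, 0.444 and 0.817 FPKM, and the decoy receptor Il1r2 had 93 counts in Abl1ko/IL3- replicate 2 and 0 elsewhere.

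**Figure D3:**
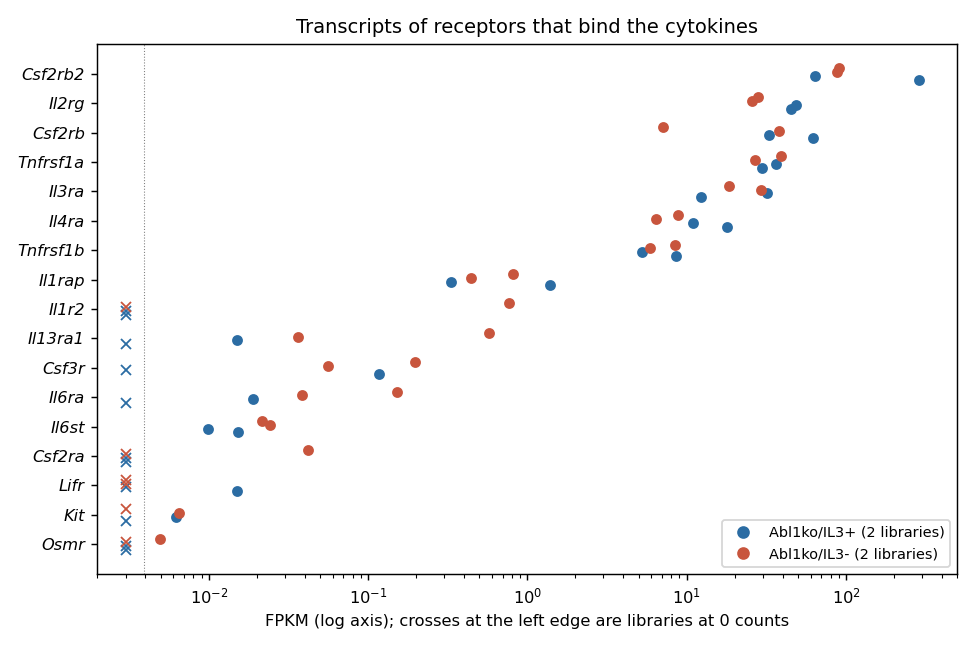
FPKM (log axis) of 17 receptor genes in 2 libraries with IL-3 (blue) and 2 without (red), with crosses at the left edge for libraries at 0 counts. Csf2rb2, Il2rg, Csf2rb, Tnfrsf1a, Il3ra, Il4ra and Tnfrsf1b lie above 5 FPKM in every library, whereas Il6st, Kit, Lifr, Osmr and Csf2ra lie under 0.05 FPKM.

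A wider list of 41 other cytokine genes had 27 with a row, of which 19 were tested. By edgeR, 0 of the 19 passed the adjusted threshold (lowest adjusted p = 0.727), 2 had an unadjusted p under 0.05 with a higher and 1 with a lower estimate (5.91% of all genes in either direction), and DESeq2 called 0 (1.64% of all genes). The median log2 fold change was 0.12, and the same with the fold change of Epo taken against the floor. Il5, the third ligand of the beta common receptor, had 0 and 4 counts with IL-3, against 12 and 0 without it. Epo, which encodes erythropoietin, had 0 and 0 counts with IL-3, against 13 and 38 without it. Its mean without IL-3 was 9.53 times the mean floor of the libraries with IL-3. Il1a, coding for interleukin-1 alpha, had 7 and 0 counts with IL-3, against 26 and 161 without it, a log2 difference of 4.84 (standard error 1.65, adjusted p = 0.815 in edgeR). Epo and Il1a, the 2 higher genes with an unadjusted p under 0.05 in edgeR, reached the minimum count of 10 only without IL-3. The filter thus kept them only through the group where they were higher, and no conclusion is drawn from their number. The most abundant genes of the list were Tgfb1, Ltb and Ebi3. Tgfb1, coding for transforming growth factor beta 1, had 377 and 600 CPM with IL-3 and 233 and 238 CPM without, and its log2 fold change was -1.13 (standard error 0.43, adjusted p = 0.841 in edgeR).

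Genes that cytokine signals turn on were listed as well. Of 18 STAT target genes all were tested, 10 with a higher and 8 with a lower estimate and a median log2 fold change of 0.01. None passed in edgeR, 1 had an unadjusted p under 0.05 (5.91% of all genes), and DESeq2 called the same gene (1.64% of all genes), Pim3, a survival kinase. Pim3 had 1707 and 294 counts with IL-3, against 63 and 164 without it (log2 fold change -2.94, standard error 0.94, adjusted p = 0.782 in edgeR and 0.0483 in DESeq2). Pim1, among the 3 most abundant with Mcl1 and Cdkn1a, had 423, 255, 64.7 and 300 CPM, so its groups overlapped.

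Of 17 NF-kappaB target genes, 14 were tested, 9 with a higher and 5 with a lower estimate and a median log2 fold change of 0.04. None passed in edgeR, and 1 had an unadjusted p under 0.05 (5.91% of all genes), Cxcl2, a neutrophil chemoattractant. DESeq2 called 1, also Cxcl2 (1.64% of all genes). Cxcl2 had 19 and 33 counts with IL-3, against 130 and 3504 without it (log2 fold change 6.13, standard error 1.66, adjusted p = 0.727 in edgeR). Its adjusted p in DESeq2 was 5.13e-05, and 1 library, Abl1ko/IL3- replicate 2, held most of its counts. Nfkbia, the inhibitor that NF-kappaB induces and the most abundant of the list, had 415 and 170 CPM with IL-3 and 254 and 420 CPM without. Nfkb1, coding for the p50 precursor, had 211 and 98.0 CPM with IL-3 and 103 and 56.9 CPM without (log2 fold change -0.93, standard error 0.50, adjusted p = 0.870 in edgeR). Nfkb2, coding for the p52 precursor, had 57.6 and 65.5 CPM with IL-3 and 40.5 and 48.6 CPM without. Its groups did not overlap (log2 fold change -0.52, standard error 0.33, adjusted p = 0.895 in edgeR). Of the 14 tested, 1 was lower and 2 were higher in both libraries without IL-3, against 15.5% and 21.5% of all genes tested.

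Of 12 genes for cytokine processing and mRNA decay, all were tested, 8 with a higher and 4 with a lower estimate. By adjusted p, 0 passed in edgeR (0% of all genes tested) and 0 in DESeq2 (1.64%). At an unadjusted p under 0.05 in edgeR there were 0 (5.91% of all genes). Adam17, the protease that sheds tumor necrosis factor from the membrane, had 201 and 95.6 CPM with IL-3 and 139 and 150 CPM without. Zfp36l2 and Elavl1, whose products bind AU-rich elements, were the other most abundant, at 156 to 222 CPM and 94.6 to 170 CPM. Elavl1 was higher in both libraries without IL-3 (170 and 142 CPM) than in both with it (94.6 and 110 CPM). It was the only 1 of the 12, against 21.5% of all genes tested.

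Summed markers of other cell types were highest in the same library as several members. The full order of the 4 libraries matched only for Il6 and Il1b. Il4 was lowest in Abl1ko/IL3- replicate 1 (4.72 CPM), and so were Osm and Lif (5.13 and 2.31 CPM). Tnf was lowest in Abl1ko/IL3+ replicate 1 (5.26 CPM). The mast cell and basophil sum and the neutrophil sum were lowest in Abl1ko/IL3+ replicate 2. The myeloid progenitor sum was also highest in Abl1ko/IL3+ replicate 1 (3158 CPM). The 8 mast cell and basophil markers summed to 1340 and 197 CPM with IL-3 and to 400 and 340 CPM without, and the library with the highest sum, Abl1ko/IL3+ replicate 1, was the one with the highest Il4 and Il6. Prss34, Cpa3 and Fcer1a made up most of that sum, and 5 of the 8 markers were highest in that library. Mcpt8, a basophil protease, was lowest there (20.5, 45.4, 69.2 and 35.5 CPM), Ms4a2 was highest in Abl1ko/IL3+ replicate 2 (3.06 CPM), Tpsab1 in Abl1ko/IL3- replicate 2 (2.62 CPM), and Tpsb2 was at 4, 0, 0 and 0 counts. The 9 monocyte and macrophage markers summed to 285, 67.2, 86.0 and 198 CPM, the same order of libraries as Il1b, with Adgre1 and Csf1r making up most of the sum. Only 4 of the 9 were highest in Abl1ko/IL3+ replicate 1, Fcgr1 was lowest there (5.51, 18.5, 10.9 and 10.7 CPM), and Ly6c2 was at 83, 0, 0 and 0 counts. The 8 neutrophil markers summed to 869, 265, 924 and 5628 CPM, highest in Abl1ko/IL3- replicate 2, where Tnf, Osm, Lif and Csf3 were also highest. Most of the sum was Ngp. Of the 8 markers, 6 were higher in both libraries without IL-3 than in both with it, as were Tnf and Csf3. The same held for 21.5% of all genes tested, and Mmp8 and Csf3 did not pass the filter on low counts. S100a8 had 1.24 and 0.348 CPM with IL-3 and 69.7 and 130 CPM without, and S100a9 had 7.71 and 1.47 CPM with and 138 and 389 CPM without. T and NK cell markers summed to 1.31 to 6.09 CPM, with 6 of 9 having a row, and the 9 fibroblast and stroma markers to 8.80 to 11.1 CPM. In bulk RNA, fewer cells of a type and less RNA per cell cannot be told apart, and the part of these cell types in the cytokine values was not tested.

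**Figure D4:**
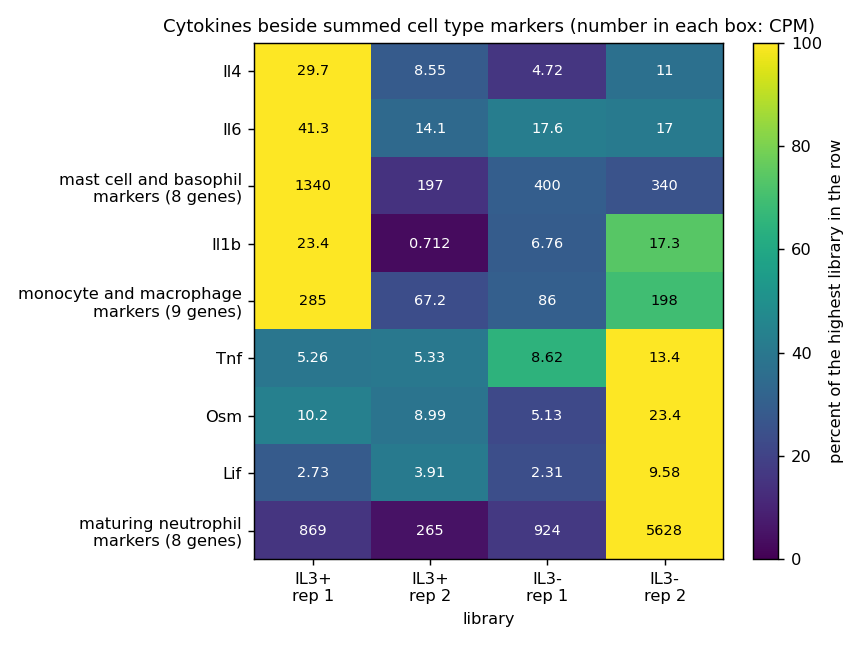
Each row is a cytokine that reached 1 CPM or a summed marker list, each column a library, the number in a box is CPM and the colour is the percent of the highest library in that row. Il4 and Il6 peak in Abl1ko/IL3+ replicate 1 with the mast cell and basophil markers (1340 CPM). Tnf, Osm and Lif peak in Abl1ko/IL3- replicate 2 with the neutrophil markers (5628 CPM). The lowest library of Il4, Tnf, Osm and Lif differs from that of those markers.

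Genes with the profile nearest to each member were sought over the 4 libraries by the Euclidean distance of log2 CPM centred on the gene mean. For Tnf, 242 genes lay within a distance of 0.5, nearest Catsperg2 (0.082), Gm11353 (0.082) and Heatr4 (0.097). For Il6, 437 genes lay within it, nearest Gm11998 (0.082), Ltbp4 (0.090) and 9230114K14Rik (0.091). Il4 had 93, nearest Pgam1-ps2 (0.114), Rab7-ps1 (0.168) and Gm44911 (0.174). Profiles as near as these were rarer for the others. Osm had 23 genes within 0.5, nearest Gm20443 (0.169), Pacsin1 (0.255) and Creb5 (0.271). Lif had 24, nearest Gm26782 (0.148), Gm12671 (0.174) and 1700042O10Rik (0.176). Kitl had 10, nearest Gm26882 (0.196), 4922502D21Rik (0.230) and Gm37520 (0.255), and Il1b had 9, nearest Gm47827 (0.099), Gm26848 (0.153) and Clec2f (0.206). With 4 libraries such likeness is a description.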

How the data were processed

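Total RNA depleted of ribosomal RNA was sequenced from 4 libraries. The authors deposited raw counts per gene and FPKM values (counts scaled to gene length and depth) for 23756 genes. The paper names Rsubread and GRCm38, whereas the submitters' processing notes name STAR, Cuffdiff and mm10, a build of the same assembly. Versions, the use of strand and how pairs of reads were counted are not given in the sources used here, so values of overlapping genes, paralogs and very low counts are uncertain. Implied gene lengths differed between libraries by a ratio of at most 1.05 for 99% of 12946 genes.

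The members and lists were chosen with earlier results of these data known. Counts were filtered (filterByExpr, minimum count 10), normalized by TMM and tested with edgeR 4.0.16 in R 4.3.3 by the two-sided quasi-likelihood test with Benjamini-Hochberg adjustment over 16535 genes, at a threshold of 0.05. The common dispersion was 0.292. Standard errors were derived from the fold change and the F statistic. CPM was computed from the counts and the library totals. The steps were also run on simulated data. Recovery of the changes put in was required only at a dispersion far lower than that of these data. That check therefore does not show what the test could find here. All columns of values were mapped to samples by name.

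Alternatives were DESeq2 1.42.0, library size alone, other filters, limma 3.58.1 on log2(FPKM + 1) and log2(FPKM + 0.1), the replicate number as a block, and leaving out each library. Counts of every pair of libraries differed beyond sampling noise, so each library counted as 1 sample. The 2 libraries with IL-3 were the most unlike pair (chi-square per degree of freedom 648), above every pair between the groups (349 to 544). The 2 libraries without IL-3 were the closest pair (246). Whether the duplicates are separate cultures is said only by the word biological. The p-values set each difference against the spread between these samples, which edgeR estimates partly across genes. Genes named were all members, the receptors, the 3 most abundant genes of each other list, those with an unadjusted p under 0.05, and the 3 nearest profiles of each tested member. Il5, as a ligand of the beta common receptor, and single markers were named after their values were seen. Columns of log fold changes or p-values by the authors were not used.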

Additional observations from a re-analysis of the deposited data

How the results depend on the processing

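With 2 libraries per group, the 95% interval of the log2 fold change was -0.17 to 2.17 for Tnf and wider for the other tested members. Changes within those intervals were not excluded. Larger changes could also go uncalled in edgeR, as for S100a8 (log2 fold change 6.98, adjusted p = 0.532 in edgeR). DESeq2 called S100a8 (adjusted p = 8.69e-21 in DESeq2), so this outcome depended on the method. Over all genes, 0 were called by edgeR with TMM, library size alone, either filter, the block or limma, whereas DESeq2 called 271. Leaving out each library in turn gave 0 to 15 genes, the 15 without Abl1ko/IL3- replicate 1. DESeq2 called 1 STAT target gene (Pim3) and 1 NF-kappaB target gene (Cxcl2), and leaving out each library gave 0 to 1 NF-kappaB target genes (Cxcl2 without Abl1ko/IL3- replicate 1). A group left with 1 library is assumed to vary like the other group. The cause was not tested. No member passed the adjusted threshold under any alternative. The log2 fold change of Il1b was -0.00178 with library size alone, 1.33 with the replicate block, and 0.613 and 1.24 on log2(FPKM + 1) and log2(FPKM + 0.1). That of Kitl was 2.03 with the block, 0.0257 on log2(FPKM + 1) and 0.205 on log2(FPKM + 0.1). Leaving out each library moved Il6 from -1.16 to 0.141, Kitl from -0.299 to 6.96, Osm from -0.879 to 1.20, Lif from -0.53 to 1.41 and Il1b from -0.886 to 3.90. Tnf and Il4 kept their direction in all 12 alternatives each. The test of Kitl with 10 counts required in every library gave no value, because Kitl did not pass that filter. With the replicate number as a block no call changed (0 genes, 548 at an unadjusted p under 0.05). Libraries of the same number deviated in opposite ways (correlation -0.224 over 14031 genes), and the crossed pairing, added after seeing the data, called 0 genes, with 1136 at an unadjusted p under 0.05.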
